A study of Mus musculus with 20 samples.

Results

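The 10 genes described here build the autophagosome or load it with cargo: Atg3, Atg5, Atg7, Atg12, Becn1, Map1lc3a, Map1lc3b, Gabarapl1, Sqstm1 and Nbr1. They were chosen by symbol, and every array probe carrying one of the 10 symbols was taken, which gave 16 of the 25697 probes on the array. Atg3 heads the set because its level differed between mutant and wild-type brain in these data, so the brain genotype values below are a description and carry no test. Of the 16 probes, 14 were above background on enough arrays to be tested in muscle, in brain and across both tissues, and they cover all 10 genes, 4 of them with 2 probes and 6 with 1. The remaining 2 probes are further Atg3 probes, of which ILMN_2595188 was above background on no array and ILMN_2805580 on 1 brain mutant array, so Atg3 was measured by ILMN_2651781.

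Autophagy encloses parts of the cytoplasm in a double membrane, the autophagosome, and delivers them to the lysosome. The kinase complex around Beclin 1 (Becn1) starts the membrane, and a ubiquitin-like conjugation system then attaches Atg8-family proteins (the LC3 proteins Map1lc3a and Map1lc3b, and Gabarapl1) to its lipids: Atg7 is the activating enzyme, Atg3 the conjugating enzyme, and the Atg12-Atg5 conjugate directs the last step. Sqstm1 (p62) and Nbr1 are receptors that bind ubiquitinated cargo and the Atg8 proteins, and neurons and muscle fibres, which do not divide, depend on this route to clear damaged proteins and organelles.

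Gene expression was measured with Illumina bead arrays in muscle and brain of 17-week-old mice on a C57BL/6J background. The mutant mice were heterozygous for a transgene of human mutant TDP-43, a protein that binds RNA and forms aggregates in amyotrophic lateral sclerosis, and the controls are labelled heterozygote wt. Muscle came from 4 mice and brain from 6 mice of each genotype, every array from its own mouse. The mutation, the promoter that drives the transgene and the muscle taken are not given in the sources used here. The design text calls the mice male, yet the Y-linked gene Eif2s3y was above background on 6 of the 12 brain arrays (3 per genotype) and on all 8 muscle arrays. The X-inactivation gene Xist was above background on all 6 brain arrays without Eif2s3y and on no muscle array, so those 6 look female. Xist was dim: its log2 level ran from 4.95 to 5.55 on those 6 and from 4.27 to 4.69 on the brain arrays with Eif2s3y. Brain results are therefore also given within the arrays with and without Eif2s3y. Probes above background numbered 11469 to 12446 per muscle array and 11736 to 12966 per brain array. By their principal component scores, 1 muscle array (wild type 2) and 3 brain arrays (wild types 2 and 4 and mutant 2) were apart from the rest of their tissue. All 3 of these brain arrays had Eif2s3y above background, so the brain split by Eif2s3y is not independent of them. Skeletal muscle markers (8 of 8 on all muscle arrays) and neuronal markers (5 of 6 on all brain arrays, with Snap25 at background on every array) matched the labelled tissues.

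Promoter sequence of 7 of the 10 genes was matched by symbol in RefSeq tables of build GRCm38.p6, and 3 of them are shown: Atg3, the gene that heads the set, and Map1lc3b and Gabarapl1, Atg8-family genes that lay on opposite sides of the tissue comparison below. Each run is the 250 bases before the annotated start, 5′ to 3′, with capitals marking CACGTG, the core of the element bound by TFEB, a transcription factor known for activating lysosomal and autophagy genes.
Atg3 promoter, chr16:45158579-45158828, + strand: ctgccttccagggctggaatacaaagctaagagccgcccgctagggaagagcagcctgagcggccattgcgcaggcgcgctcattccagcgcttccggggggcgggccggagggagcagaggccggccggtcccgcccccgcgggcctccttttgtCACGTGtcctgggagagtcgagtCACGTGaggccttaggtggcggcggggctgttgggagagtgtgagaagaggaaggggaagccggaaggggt
Map1lc3b promoter, chr8:121590188-121590437, + strand: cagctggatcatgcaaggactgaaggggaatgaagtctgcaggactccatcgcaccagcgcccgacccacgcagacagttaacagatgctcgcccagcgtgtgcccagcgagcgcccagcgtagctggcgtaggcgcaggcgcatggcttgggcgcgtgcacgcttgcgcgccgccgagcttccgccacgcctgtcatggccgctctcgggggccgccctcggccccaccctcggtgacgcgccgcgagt
Gabarapl1 promoter, chr6:129532942-129533191, + strand: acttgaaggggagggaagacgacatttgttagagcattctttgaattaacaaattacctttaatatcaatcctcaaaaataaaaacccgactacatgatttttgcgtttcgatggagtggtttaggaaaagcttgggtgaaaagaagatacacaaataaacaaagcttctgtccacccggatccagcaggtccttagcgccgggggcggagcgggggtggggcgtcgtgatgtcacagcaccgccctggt
CACGTG reads the same on both strands. It occurs in the windows of 3 of the 7 genes, with 2 copies in Atg3 (first base at positions -94 and -71 from the start) and 1 each in Atg5 and Atg7. Among 32851 mouse promoter windows of the same length 6.021% held the motif and 0.429% held 2 or more copies. The antioxidant-response motif TGACNNNGC, searched on both strands, was in none of the 7 genes' windows and in 10.161% of all windows. Both motifs were picked with the Atg3 sequence in view, and a match of letters is not a binding site.

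Atg3 was lower in mutant brain. Levels are normalised log2 intensities, and within a tissue all arrays were normalised together. In wild-type brain the Atg3 level ran from 6.52 to 6.96 with a median of 6.72, and in mutant brain from 6.00 to 6.26 with a median of 6.17. Every mutant lay below every wild type, so the groups did not overlap. The difference was -0.60 (SE 0.10, n = 6 and 6), which puts the mutants at 66.0% of the wild-type level. Atg3 ranked 3 by p among the 12423 probes tested in brain, which is how it was chosen, and no probe at all was called lower there after adjustment (1 probe was called, higher, 0.00805% of those tested). Of the 14 member probes, the brain groups failed to overlap only for Atg3. Over all tested brain probes 0.386% had every mutant below every wild type, and 0.596% did not overlap in either direction.

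The Atg3 difference was about the same in arrays with and without the Y-linked signal, at -0.59 and -0.61. Without the 3 brain arrays that stood apart, all of which had the Y-linked signal, it was -0.63. Markers of brain regions varied between mice: the mean level of 7 listed hypothalamic and pituitary genes ran from 4.41 to 7.59 in wild-type and from 5.90 to 7.80 in mutant brain, and that of the cerebellar list from 6.97 to 9.55 and from 8.69 to 9.36. Astrocyte markers lay between 8.60 and 9.11 in wild types and between 8.92 and 9.27 in mutants, all 6 of them above background on every brain array. With regional marker levels as covariates the Atg3 difference was -0.46, and the part of astrocytes in it was not tested. In tissue RNA, fewer cells of a type and less RNA per cell cannot be told apart.

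Map1lc3b, which encodes the LC3B protein that coats the growing membrane, had the next largest difference among the main probes in brain. Its level ran from 6.62 to 7.86 in wild types with a median of 6.99, and from 6.08 to 7.01 in mutants with a median of 6.41. The groups overlapped: 4 of 6 mutants lay below all wild types, and 2 wild types lay above all mutants. The difference was -0.55 (SE 0.20), or 68.3% of the wild-type level. It was -0.39 without brain wild type 1, the highest of all, -0.33 with regional marker levels as covariates and -0.79 without the 3 arrays that stood apart. Within the arrays with and without Eif2s3y it was -0.54 and -0.56.

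For Becn1, the 2 probes gave different pictures in brain. On ILMN_3090581 the wild types ran from 5.03 to 5.69 with a median of 5.21 and the mutants from 4.34 to 5.09 with a median of 4.63. Here 4 of 6 mutants lay below all wild types, and the difference was -0.58 (SE 0.15). This probe is dim, above background on 6 of 6 wild-type and 4 of 6 mutant arrays, and without background correction its difference was -0.16. Within the arrays with and without Eif2s3y it was -0.77 and -0.38, and without the 3 arrays that stood apart -0.51. Those 3 are all among the arrays with Eif2s3y, so the 2 splits cannot be told apart. On the brighter probe ILMN_3018758 the wild types ran from 5.62 to 6.96 and the mutants from 6.21 to 6.72, and the difference was -0.05 (SE 0.21). The lowest wild type and the next lowest on that probe were 2 of the arrays that stood apart. Which transcripts each probe reads is not given in the sources used here.

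**Figure D1:**
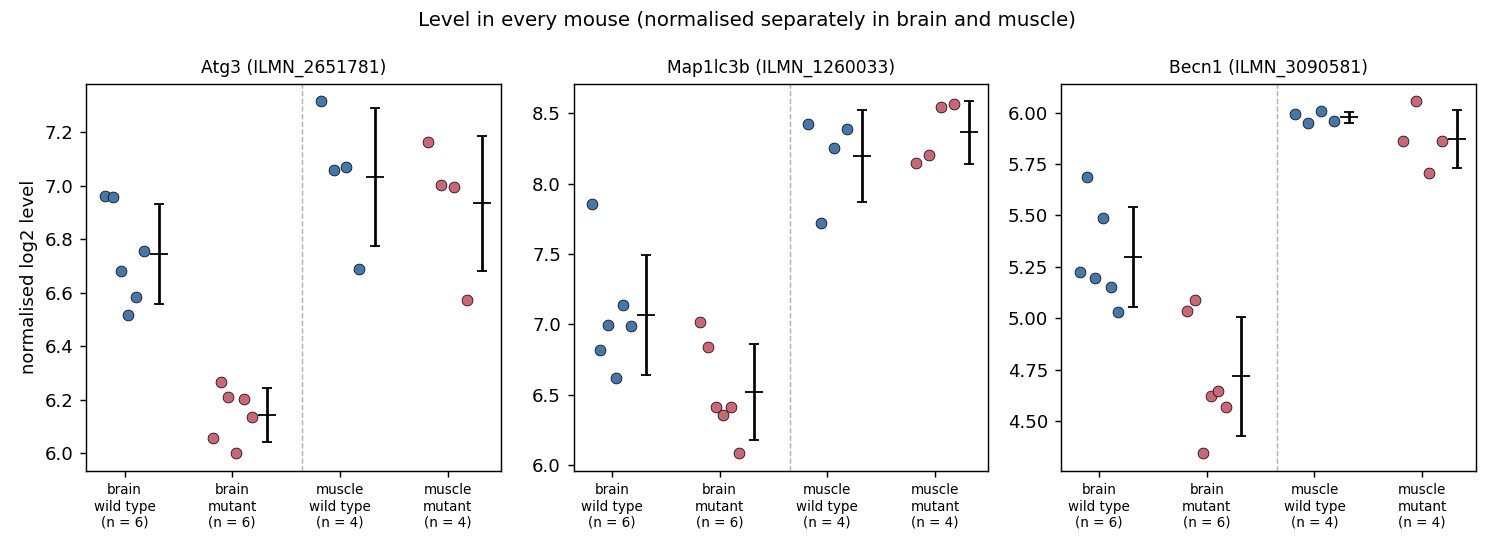
Normalised log2 level (y axis) in each mouse (points) of the 4 groups (x axis) for Atg3, Map1lc3b and the dim Becn1 probe, with the mean and SD beside the points; brain and muscle were normalised separately. In brain the 6 mutants lie below the 6 wild types for Atg3, at 6.00 to 6.26 against 6.52 to 6.96, and overlap for the other two, and in muscle the groups overlap for all of them.

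The other conjugation genes of brain lay close together between genotypes. Atg7, the activating enzyme upstream of Atg3, differed by -0.10 (SE 0.13), with levels of 5.79 to 6.55 in wild types and 5.94 to 6.40 in mutants. Atg12, the ubiquitin-like partner of Atg5, differed by -0.12 (SE 0.11), and 1 mutant, number 2 at 7.88, lay below the remaining mutants at 8.32 or higher. The Atg5 probes differed in sign, with 0.10 (SE 0.13) on ILMN_2998135 and -0.18 (SE 0.14) on ILMN_2998139. The groups overlapped for all of these probes.

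Among the Atg8-family genes of brain, Gabarapl1 had a level of 10.20 to 11.07 in wild types and 10.39 to 10.92 in mutants and differed by -0.03 (SE 0.14). The probes for Map1lc3a, which encodes LC3A, disagreed. The brighter probe, ILMN_2832682, differed by -0.19 (SE 0.17) and the dimmer one, ILMN_2686183, by 0.37 (SE 0.35), where 2 wild types at 4.41 and 4.37 lay far below the remaining wild types. The cargo receptors were close to even. Sqstm1 differed by -0.04 (SE 0.08), with every brain array between 10.75 and 11.07, the narrowest range among the 14 probes. Nbr1 differed by 0.11 (SE 0.24) on ILMN_1220889 and by 0.09 (SE 0.26) on ILMN_2664797.

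**Figure D2:**
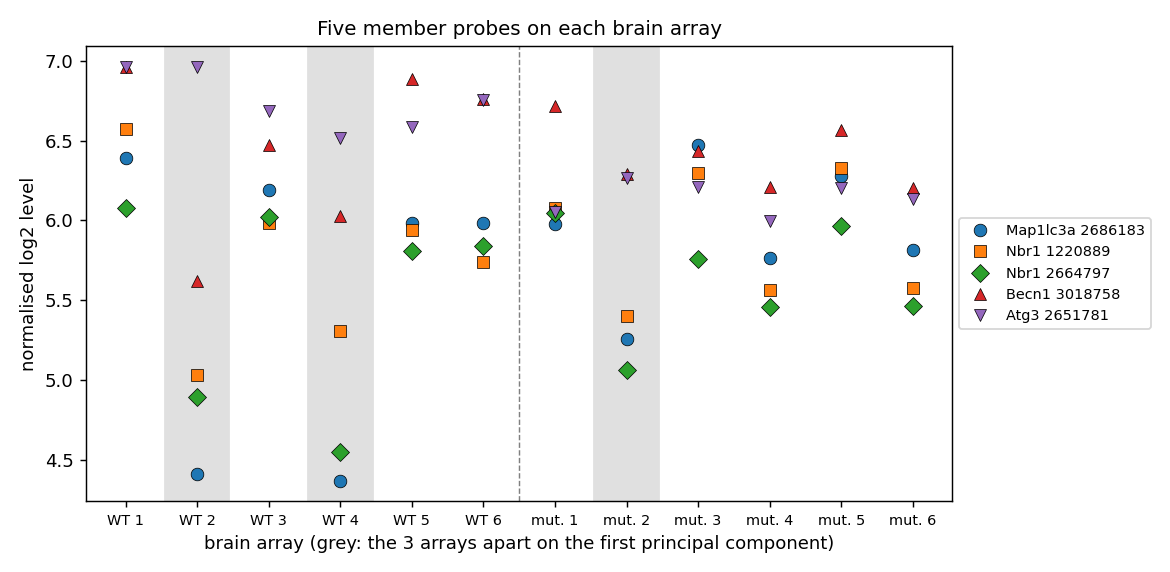
Normalised log2 level (y axis) of 5 member probes on each of the 12 brain arrays (x axis, wild type left of the dashed line, mutant right), with the 3 arrays that stood apart shaded grey. The Map1lc3a probe ILMN_2686183 and both Nbr1 probes are lowest on the shaded arrays, while Atg3 follows genotype.

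Some member probes separated the 3 brain arrays that stood apart from the other 9. On Map1lc3a ILMN_2686183 these arrays lay at 4.41, 4.37 and 5.26, below the other 9, which ran from 5.76 to 6.47. On Nbr1 ILMN_1220889 they lay at 5.03, 5.31 and 5.40 against 5.56 to 6.58, and on Nbr1 ILMN_2664797 at 4.89, 4.55 and 5.06 against 5.46 to 6.08. Atg7 went the other way, with 6.38, 6.55 and 6.40 against 5.79 to 6.35. So 3 of 14 member probes, both Nbr1 probes among them, had all 3 arrays below the others, against 1110 of all 12423 tested brain probes. Atg7 alone had them above, and how many of all probes did so is not given here. The 3 arrays were set apart by principal component scores of these same data, so probes that separate them were bound to be found. After the genotype means were removed, Map1lc3a ILMN_2686183 and Nbr1 ILMN_1220889 correlated over the 12 arrays with Pearson r 0.89 and Spearman rho 0.87, and r was 0.90 without the 3 arrays. For Map1lc3a ILMN_2686183 and Nbr1 ILMN_2664797 r was 0.95 and rho 0.86, but r was 0.62 without the 3 arrays. These correlations describe 12 arrays that include the 3 standing apart.

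How Atg3 varied with the other members from mouse to mouse depended on the 3 brain arrays that stood apart. With genotype means removed, the highest correlation of Atg3 with a member over the 12 brain arrays was with Map1lc3b, at r 0.38 (rank 1111 of 12422 probes), and the lowest was with Sqstm1, at r -0.37 (rank 11220). Atg7, the enzyme that hands the Atg8 proteins to Atg3, had r -0.30. Without the 3 arrays, the correlation of Atg3 was highest with Map1lc3a ILMN_2686183 at r 0.72 (0.09 over all 12 arrays) and Nbr1 ILMN_1220889 at r 0.70 (0.15), and lowest with Atg7 at r -0.56, while Map1lc3b kept r 0.38. The named genes most like Atg3 were Cdkn1a, an inhibitor of cyclin-dependent kinases, at r 0.90 and rho 0.94, then Meis2, a homeobox factor, at r 0.84, Rbm12 at r 0.84, 1110017D15Rik at r 0.83 and Bdh1, a ketone body dehydrogenase, at r 0.83. Without brain wild type 1 and 2, the arrays farthest from the Atg3 median, r was 0.88 for Cdkn1a, 0.70 for Meis2, 0.71 for Rbm12, 0.76 for 1110017D15Rik and 0.87 for Bdh1. These genes are the top of 12422 ranked probes over 12 arrays, so high values can come from the search alone, which was not tested. Their r without the 3 arrays that stood apart is not given here.

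In muscle, no member passed the test between genotypes. Atg3 lay at 7.16, 7.01, 7.0 and 6.57 in the mutants and at 7.32, 7.06, 7.07 and 6.69 in the wild types. The groups overlapped, and the difference was -0.10 (95% interval -0.46 to 0.27, n = 4 and 4, limma adjusted p = 0.999). Map1lc3b lay at 8.14, 8.20, 8.54 and 8.57 in mutants and at 8.42, 7.72, 8.25 and 8.39 in wild types, a difference of 0.17 (95% interval -0.22 to 0.56). Both intervals are wide. With pancreatic acinar marker level as a covariate the Atg3 difference was -0.92, but that list moved with genotype in these muscles, so the fit cannot tell it from genotype.

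Over the 14 member probes the muscle differences ran from -0.27 to 0.31, 0 were called by limma and 0 had groups that did not overlap. Of all 11706 probes tested in muscle 0.179% were called (21 probes, with 364 at an unadjusted p under 0.05), and 2.15% did not overlap. The largest member difference downward was Nbr1 ILMN_1220889, with mutants at 5.68, 5.75, 5.41 and 5.82 and wild types at 6.14, 5.98, 5.94 and 5.70 (95% interval of the difference -0.57 to 0.02). On it 3 wild types lay above all mutants, while the other Nbr1 probe differed by -0.05 (SE 0.15). The largest upward was Map1lc3a ILMN_2832682, with mutants at 8.61, 9.03, 9.10 and 10.14 and wild types at 8.81, 9.0, 8.81 and 9.04. Mutant 4 carried that difference, which was 0.00 without it. Sqstm1, the receptor p62, differed by -0.01 (SE 0.12).

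Pancreatic acinar genes moved with genotype in the muscle samples: the mean level of the 10 listed genes ran from 6.17 to 6.97 in wild types and from 5.04 to 5.15 in mutants. Fibroblast markers ran from 8.36 to 9.61 in wild types and from 8.0 to 8.40 in mutants. The 9.61 was muscle wild type 2, the array that stood apart, and the remaining wild types reached 8.45. The 2 groups did not overlap in acinar level. With it as a covariate no member was called, but the differences moved widely: to -0.92 for Atg3, -0.89 for Nbr1 ILMN_1220889, -1.23 for Gabarapl1, 0.62 for Atg7 and 0.77 for Map1lc3a ILMN_2832682 (limma adjusted p = 1.0 for each). Acinar level and genotype nearly coincide in these 8 arrays, so this fit cannot separate them. Its differences, and its lack of calls, therefore say little about genotype. The part of fibroblasts was not tested.

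**Figure D3:**
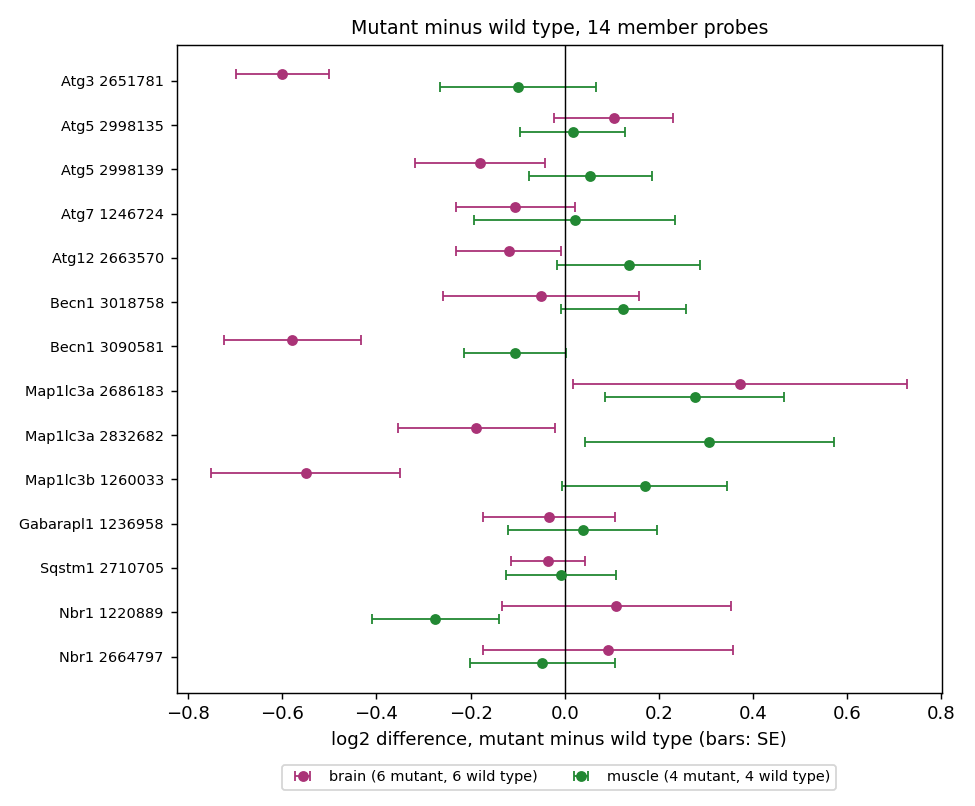
Log2 difference between mutant and wild type (x axis, above 0 where mutants are higher, points, with bars of 1 SE) for the 14 tested member probes (y axis) in brain and in muscle. In brain Atg3, Becn1 ILMN_3090581 and Map1lc3b lie at -0.60, -0.58 and -0.55, and in muscle all 14 probes lie between -0.27 and 0.31.

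The genotype difference in muscle minus that in brain, from a fit to all 20 arrays, was 0.53 (SE 0.18) for Atg3, 0.74 (SE 0.30) for Map1lc3b and 0.44 (SE 0.19) for Becn1 ILMN_3090581. Since it contains the brain contrast by which Atg3 was chosen, it is given with no test. For the other 11 probes it ran from -0.37 for Nbr1 ILMN_1220889 to 0.48 for Map1lc3a ILMN_2832682.

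Far more probes differed between the tissues than between the genotypes. For this comparison all 20 arrays were normalised together, and wild-type and mutant mice were compared apart, which gives the tissue difference in separate mice with 1 shared estimate of the spread. In wild types 8 of 14 member probes passed the limma test at an adjusted p under 0.05, 6 higher in muscle and 2 lower. In mutants 11 passed, 9 higher and 2 lower. Of all 14830 probes tested, 72.4% passed in wild types (38.7% higher and 33.7% lower) and 72.7% in mutants (38.9% and 33.8%), so a tissue difference was common among all probes. The groups of 5 member probes did not overlap in wild types and those of 10 in mutants, against 57.3% and 61.9% of all probes. No slide is given in the files used here, so tissue and any batch of arrays cannot be told apart. Sex signals also differed between the tissues: Eif2s3y was above background on every muscle array but not on 6 brain arrays, and the tissue fits did not adjust for it.

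Gabarapl1, a GABARAP-family Atg8 protein, was the member most biased to brain. In wild types its joint level was 8.53, 8.55, 8.90 and 8.20 in muscle and averaged 10.90 ± 0.30 (SD, n = 6) in brain. In mutants it was 8.72, 8.46, 8.44 and 8.71 in muscle and averaged 10.86 ± 0.23 in brain. Every brain lay above every muscle in both genotypes. Brain exceeded muscle 5.12-fold in wild types (difference of logs -2.36, SE 0.16, limma adjusted p = 1.13e-11) and 4.86-fold in mutants (limma adjusted p = 1.98e-11).

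Atg7 was also higher in brain. Its joint level was 4.43, 5.43, 4.98 and 5.16 in wild-type muscle and 6.18 ± 0.26 in wild-type brain. The mutants had 4.91, 4.91, 4.74 and 5.58 in muscle and 6.07 ± 0.18 in brain. Again the groups did not overlap. The fold between tissues was 2.26 in wild types (limma adjusted p = 5.95e-06) and 2.06 in mutants (limma adjusted p = 2.87e-05). In muscle the probe was near background, detected on 3 of 4 wild-type arrays, so the offset added to all signals makes these folds too small. Without background correction the Atg7 differences were -0.41 and -0.35, against -1.18 and -1.04, and both were still called.

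The LC3 genes were higher in muscle. Map1lc3b lay at 8.36, 7.69, 8.20 and 8.33 in wild-type muscle against 7.04 ± 0.46 in wild-type brain, and at 8.09, 8.15, 8.48 and 8.5 in mutant muscle against 6.46 ± 0.36 in mutant brain. In wild types brain wild type 1, at 7.89, reached into the muscle range, and in mutants the groups did not overlap. The fold was 2.15 in wild types (difference 1.1, SE 0.22, limma adjusted p = 0.000103) and 3.60 in mutants (1.85, SE 0.22, limma adjusted p = 1.03e-07). Map1lc3a was higher in muscle on both probes, by 1.00 and 0.99 in wild types (limma adjusted p = 0.000338 and 0.0117) and by 1.48 and 0.89 in mutants (limma adjusted p = 3.12e-06 and 0.0211). Without muscle mutant 4 the mutant call on the dimmer Map1lc3a probe, ILMN_2686183, was lost (0.72, limma adjusted p = 0.0844). Without background correction the differences on it were 0.37 and 0.41, and those of Map1lc3b 0.73 and 1.18, all still called. So the LC3 genes and Gabarapl1, members of the same Atg8 family, lay on opposite sides of the tissue comparison.

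Atg3 had joint levels of 7.07 ± 0.23 in wild-type muscle, 6.98 ± 0.23 in mutant muscle, 6.69 ± 0.20 in wild-type brain and 6.07 ± 0.10 in mutant brain. The 2 muscle groups, neighbours in that order, did not differ beyond their spread. Muscle exceeded brain by 0.38 in wild types (SE 0.12, 1.30-fold, limma adjusted p = 0.00931) with overlapping groups, and by 0.91 in mutants (1.88-fold, limma adjusted p = 9.76e-07) with no overlap. The wild-type call was lost without muscle wild type 1 (0.30, limma adjusted p = 0.0515) and with median scaling of the arrays (0.26, limma adjusted p = 0.325). Without background correction the Atg3 differences were 0.22 and 0.46, both still called.

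Becn1 was higher in muscle on the dim probe ILMN_3090581, by 0.88 in wild types (limma adjusted p = 4.38e-06) and 1.32 in mutants (limma adjusted p = 1.05e-08). It was above background on 4 of 6 mutant brain arrays, and without background correction the Becn1 differences on it were 0.31 and 0.42, both still called. On ILMN_3018758 the differences were 0.31 (limma adjusted p = 0.176) and 0.48 (limma adjusted p = 0.0401), and the mutant call was lost in 7 of 10 fits that left out 1 array. Atg5 was higher in muscle on ILMN_2998135, by 0.86 in wild types (limma adjusted p = 3.9e-06) and 0.77 in mutants (limma adjusted p = 1.76e-05). On ILMN_2998139 it was higher by 0.54 in mutants (limma adjusted p = 0.00215), and the wild-type difference of 0.30 did not pass (limma adjusted p = 0.0694). Atg12 differed by 0.16 in wild types (limma adjusted p = 0.285) and was higher in mutant muscle by 0.41 (limma adjusted p = 0.0075).

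The cargo receptors showed no called difference between tissues. Sqstm1 averaged 11.16 ± 0.13 in wild-type muscle and 11.06 ± 0.12 in wild-type brain, a difference of 0.10 (95% interval -0.08 to 0.28, limma adjusted p = 0.299), and the mutant difference was 0.13 (95% interval -0.05 to 0.31, limma adjusted p = 0.17). With median scaling Sqstm1 passed in both genotypes, higher in muscle by 0.55 and 0.84 (limma adjusted p = 0.028 and 0.00166). Nbr1 ILMN_1220889 differed by 0.37 in wild types (limma adjusted p = 0.161), and passed without brain wild type 1 (0.54, limma adjusted p = 0.0274). The other Nbr1 probe, ILMN_2664797, differed by 0.05 in wild types (limma adjusted p = 0.878), and without the 3 arrays that stood apart by -0.35 (limma adjusted p = 0.0499).

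**Figure D4:**
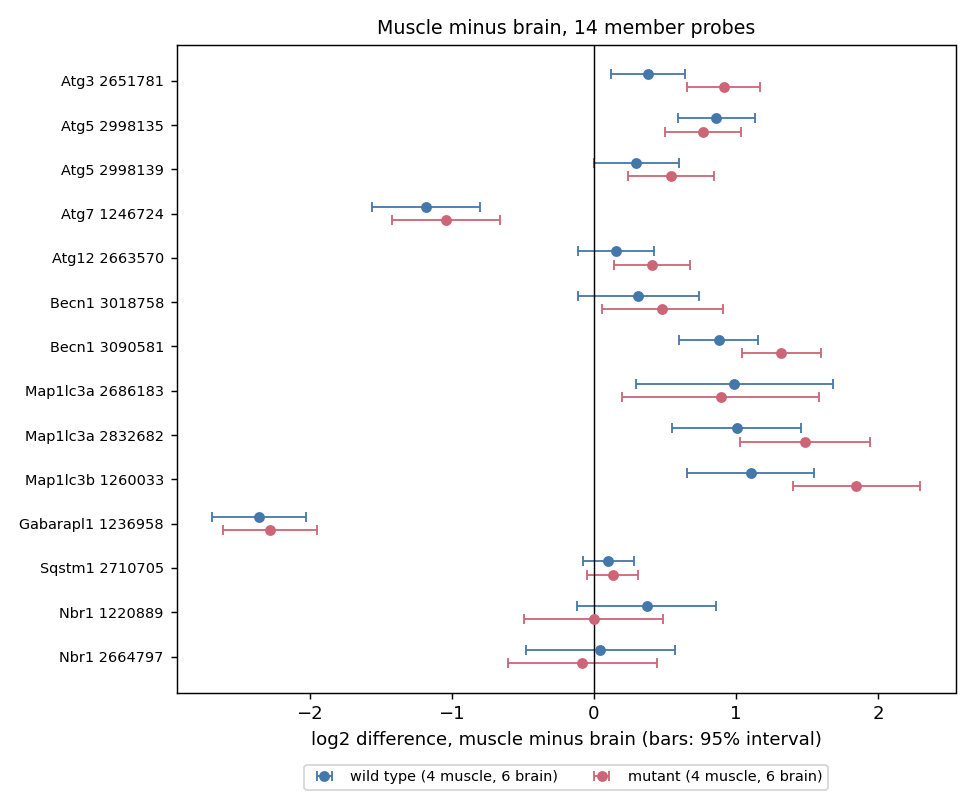
Difference of muscle minus brain on the log2 scale (x axis, points, with bars of the 95% interval) for the 14 tested member probes (y axis), in wild-type and in mutant mice. Gabarapl1 and Atg7 lie below 0 in both genotypes, from -2.36 to -1.04, both LC3 genes lie above 0, and Sqstm1 and Nbr1 have intervals that cross 0.

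Of 66 other autophagy genes listed by role, 59 were on the array. In brain 49 were tested and 0 passed between genotypes by limma (background by gene 0.0112%), with a median difference of 0.02 against 0.01 over all genes. The lowest p within the conjugation list belonged to Gabarapl2, a further Atg8 gene, at -0.32 (limma adjusted p = 0.563). Among the fusion genes it belonged to the SNARE Snap29 at -0.31 (limma adjusted p = 0.467), and among the regulators to the TFEB relative Tfe3 at -0.41 (limma adjusted p = 0.655). In the remaining lists it belonged to Pik3c3 at 0.22 (limma adjusted p = 0.682), Atg13 at 0.15 (limma adjusted p = 0.842) and Tax1bp1 at -0.26 (limma adjusted p = 0.816). Of the 49 genes, 23 were lower in mutant brain. In muscle 50 were tested and 0 passed (background by gene 0.217%), with a median of 0.04 against 0.01.

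Between tissues, 15 of 52 other autophagy genes were higher in wild-type muscle, 20 were lower and 17 did not pass, where 73.8% of all genes passed (37.8% higher, 36% lower). In mutants 16 were higher and 21 lower, where 74.5% passed (38.1% higher, 36.3% lower). Higher in wild-type muscle were Wipi1, which binds the lipid of the forming membrane (3.80-fold, limma adjusted p = 1.54e-13), Retreg1, a receptor for the endoplasmic reticulum (8.13-fold, limma adjusted p = 1.65e-07), Prkaa2, a catalytic subunit of the energy-sensing kinase AMPK (8.36-fold, limma adjusted p = 3.66e-06), and Snap29 (3.09-fold, limma adjusted p = 5.23e-12). Tfeb was above background on all muscle and no brain arrays, and was at least 1.59-fold higher in wild-type muscle (limma adjusted p = 8.11e-07) and at least 1.52-fold higher in mutant muscle (limma adjusted p = 6.97e-07). For such a bound, each dim array counts at its lowest detected level, or at the probe's own level where that is higher.

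Higher in wild-type brain were Atg9b, a lipid scramblase of the membrane supply (at least 4.93-fold, limma adjusted p = 6.14e-13, detected on no wild-type muscle array), Mtor, the kinase that restrains autophagy (2.38-fold, limma adjusted p = 1.95e-09), the mitophagy receptor Bnip3l (1.97-fold, limma adjusted p = 4.83e-07) and the adaptor Tollip (1.99-fold, limma adjusted p = 3.13e-06). Within the conjugation list Atg10, the enzyme that joins Atg12 to Atg5, was higher in muscle (1.88-fold, limma adjusted p = 1.95e-07). Atg16l1, which carries the Atg12-Atg5 conjugate to the membrane, was higher in brain (1.43-fold, limma adjusted p = 0.000219), as was Gabarapl2 (1.39-fold, limma adjusted p = 0.00278). In wild types Gabarapl2 thus lay on the same side as Gabarapl1, opposite to the LC3 genes. That did not hold in mutants, where Gabarapl2 was not called. There Atg16l1 was the only gene of the conjugation list with a level below that of brain in muscle.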

How the data were processed

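Illumina bead-array expression was measured in muscle (4 mutant, 4 wild type) and brain (6 and 6), grouped by the sample titles. RNA was extracted with Trizol and RNeasy columns and labelled with the Ambion MessageAmp kit, per the labels' protocols. The deposited table gives each probe's raw signal intensity on each array. A detection p-value stands beside each signal in the deposited table. The submitters' processing notes name GenomeStudio 2011.1. A table of intensity values processed by the authors is linear, goes below 0 on all 20 arrays and keeps the probe ranks of the signals. It served only as an alternative, and how the authors normalized them is not given in the sources used here. Genes were named from the platform annotation (23978 probes with 1 symbol, 1719 unnamed here).

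With limma 3.58.1 (R 4.3.3) the raw signals were given normexp background correction (controls inferred from detection p), an offset of 16, quantile scaling and log2, per tissue for genotype and over all 20 arrays for tissue. Probes with a detection p under 0.05 on at least 4 muscle, 6 brain or 4 of all arrays were tested with limma (lmFit, eBayes) and Benjamini-Hochberg adjustment over all tested probes. The offset shrinks differences of dim probes. Precision is limited by how many arrays each group has. The fits were tested on simulated data. In these, probes with changes of several sizes were present together and the noise was independent between probes and arrays. Of 50 probes given a log2 change of 0.5, the muscle fit called 13 and the brain fit 28. At a change of 1 each called 45 of 50, so changes of the size seen among the members can be missed. The real fits called 21 probes in muscle and 1 in brain. With so few calls and noise shared between probes, the real fits may recover less than the simulated ones.

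The members and gene lists were chosen with earlier results of these data known. The rule for named genes took all members with every probe, and per list of other autophagy genes those of lowest p in each direction among those passing, or the 1 of lowest p; the examples above are a selection from these. The genes most like Atg3 were the 5 named genes of highest Pearson r, ranked over 12422 single probes. In the lists of other autophagy genes, each gene was represented by its brightest probe. Alternatives were other background correction, scaling, filters, array weights, covariates, a replicate block and leaving out arrays.

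Replicate numbers did not pair the samples: deviations of same-numbered arrays correlated at -0.25 to 0.10 in muscle and -0.07 to 0.62 in brain, with 4 of 6 brain pairs over 0.1.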

Additional observations from a re-analysis of the deposited data

Results flagged for a closer look

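In 56 groups of 4 or 6 values checked, 4 held an array far from the rest; chance alone flags about 1 in 20 groups. The Atg5 probe ILMN_2998139 was 8.09 in muscle mutant 4, with the nearest mutant at 8.39. Atg12 was 7.88 in brain mutant 2, one of the arrays that stood apart, with the nearest mutant at 8.32. The Map1lc3a probe ILMN_2686183 was 6.15 in muscle wild type 1, with the nearest wild type at 6.45. Sqstm1 was 11.07 in brain wild type 3, with the nearest wild type at 10.85.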

How the results depend on the processing

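Of 251 muscle values of member probes under alternatives, 226 kept their direction and none was called; of 248 tissue values in each genotype, 231 in wild types and 230 in mutants kept direction and call. The Atg3 difference in brain was -0.83 with median scaling and -0.29 when background was not corrected; under median scaling the median of all probes shifted by -0.21, and leaving out 1 array gave -0.65 to -0.56. In muscle the sign turned for Atg5 ILMN_2998135 with median scaling (-0.016) and with Eif2s3y as a covariate (-0.025), for Atg7 with median scaling (-0.068), and with acinar markers as a covariate for Atg12 (-0.21), Becn1 ILMN_3018758 (-0.34), Gabarapl1 (-1.23) and Nbr1 ILMN_2664797 (0.071). With array weights it turned for Gabarapl1 (-0.0055), Sqstm1 (0.016) and Nbr1 ILMN_2664797 (0.052). Leaving out 1 muscle array gave -0.21 to 0.022 for Atg3, -0.033 to 0.057 for Atg5 ILMN_2998135, -0.032 to 0.13 for Atg5 ILMN_2998139, -0.15 to 0.15 for Atg7, -0.0063 to 0.22 for Atg12, -0.081 to 0.16 for Gabarapl1, -0.061 to 0.059 for Sqstm1 and -0.13 to 0.076 for Nbr1 ILMN_2664797. Between wild-type tissues Becn1 ILMN_3018758 turned to -0.013 and Nbr1 ILMN_2664797 to -0.35 without the 3 arrays apart, an alternative chosen after seeing the data. Nbr1 ILMN_2664797 also turned without background correction (-0.0056), with median scaling (-0.027) and with array weights (-0.18), and ran from -0.14 to 0.15 on leaving out 1 array. Between mutant tissues the replicate block turned Nbr1 ILMN_1220889 to 0.038 and Nbr1 ILMN_2664797 to 0.0090, and leaving out 1 array gave -0.097 to 0.092 and -0.19 to 0.041. The causes were not tested.

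Over all probes, the 21 muscle calls became 3 without background correction, 2 with median scaling, 8 without a detection filter, 8 with detection on every array, 0 with acinar markers as a covariate and 12 to 23 on leaving out 1 array. The acinar covariate nearly coincides with genotype in muscle, so a loss of calls with it was close to fixed in advance. The 1 brain call became 2 without background correction, 2 with detection on every array, 5 with array weights, 0 in arrays with Eif2s3y, 2 in those without, 0 with regional markers, 2 without the 3 arrays apart and 1 to 2 on leaving out 1 array. A fit to the 7929 probes detected on every array gave 6129 wild-type tissue calls, 6185 mutant tissue calls and 3 interaction calls, against 10737, 10787 and 26. It leaves some member probes untested. With the replicate block the muscle count was 12 and the brain count 0; the numbers do not pair the samples, and no array correlated best with its own number. Among the mutant tissue calls, median scaling gave 5326 higher and 3918 lower, against 5770 and 5017. The authors' values were not run between tissues. Their lowest value was -13.3 on muscle and -14.5 on brain arrays, so the tissues may have been normalized separately, which the sources do not state. A slide block was not run because no slide is given in the files used here.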
